A study of Mus musculus with 8 samples.

Results

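Of 48068 autosomal windows of 50 kb in mouse embryonic stem cells, 2534 (5.27%, 126.7 Mb) had a middle timing score and similar scores on both sides. They were chosen by the timing score itself. The mean of all 4 profiles had to lie between -1.5 and 1.5, and the means 200 kb before and 200 kb after the window had to differ by less than 1 score unit. These flat mid-level windows made up 23.1% of the 10984 autosomal windows with a middle mean. Another 8404 mid-level windows failed the flatness limit and are called steep here, 46 had no value on a flank, 19052 windows were early (mean at or above 1.5) and 18032 were late (at or below -1.5). The largest flank difference among the members was 0.998 and the smallest outside was 1.0003, and 234 members lay within 0.1 of that limit against 236 windows just beyond it. The means nearest to the level limits were 1.49931 and -1.49874 among the members and 1.50009 and -1.50126 outside, with 176 members within 0.1 of either limit and 216 flat windows just beyond.

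The series profiled replication timing by Repli-seq, in which cells take up BrdU for 2 h, are sorted by DNA content into an early and a late fraction, and the newly made DNA of 40000 cells per fraction is recovered with an antibody and sequenced. The control group held 2 profiles of mESC, and the dTAG group held 2 profiles of mESC taken 2 days after dTAG, a small molecule that targets a tagged protein, here YY1, for degradation. Each profile combined an early and a late sample, so 8 samples stand behind the 4 profiles. The labels refer to a publication for culture and treatment and name no strain, clone or tag, and nothing in them says that replicates came from separate cultures, so each p-value reflects only how far these samples differ, which may be technical. For dTAG replicate 1 the titles and the fraction labels disagree on which sample was early. The deposited dTAG 1 profile ran in the same direction as control 1. Its mean was 3.47 in early and -3.08 in late windows, against 3.47 and -3.08 in control 1. Timing scores hold no read counts, so the depth is unknown, YY1 protein was not measured, and the cell type could be checked only through timing. All 39 Hox genes and 25 of 26 pluripotency genes lay in early windows, the remaining one being on chromosome X. So did 68.8% of all protein-coding genes with a score and 22 of 32 germ layer regulators, so this is a weak check.

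In S phase, clusters of origins fire in a rough order, and the genome falls into early and late domains joined by transition regions in which timing changes steadily along the chromosome. A window of middle timing without a slope can be the top of a small, weakly early peak, the bottom of a shallow valley between early domains, or a level stretch. A middle score is also what a mixture gives in which some cells or alleles replicate the locus early and others late, which cannot be told apart from uniform middle replication in a population profile. YY1 is a zinc finger protein found at active enhancers and promoters, which it can bring together.

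The YY1 binding motif is shown in the promoters of 2 genes of these windows, the only named genes with a match. Both were named as the gene with the lowest dTAG minus control difference of their list, so that difference is a description. The letters searched were AANATGGC on either strand, from 250 bases before to 50 bases after the start site in RefSeq sequence of GRCm38.p6. Capitals mark the match. The match in Vmn1r46, a vomeronasal pheromone receptor gene, is on the opposite strand and starts 70 bases before the start site (position -70, chr6:89975921-89976220, plus strand). The match in Mkrn3, an imprinted gene for a zinc finger ubiquitin ligase, is on the strand of the gene at -127 (chr7:62420104-62420403, minus strand).
Vmn1r46: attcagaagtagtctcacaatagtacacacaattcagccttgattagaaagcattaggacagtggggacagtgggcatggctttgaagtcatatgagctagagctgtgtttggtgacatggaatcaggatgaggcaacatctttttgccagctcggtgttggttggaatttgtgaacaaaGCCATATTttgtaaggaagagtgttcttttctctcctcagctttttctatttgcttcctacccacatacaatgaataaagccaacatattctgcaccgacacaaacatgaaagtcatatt
Mkrn3: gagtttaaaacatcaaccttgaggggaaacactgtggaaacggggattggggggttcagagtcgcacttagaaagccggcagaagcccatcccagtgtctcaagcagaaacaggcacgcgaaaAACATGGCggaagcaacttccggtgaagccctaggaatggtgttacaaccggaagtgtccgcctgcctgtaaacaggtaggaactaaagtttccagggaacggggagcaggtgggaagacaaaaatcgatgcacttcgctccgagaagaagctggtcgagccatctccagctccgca
The window of Vmn1r46 scored -0.89 and -0.67 in the controls and -1.42 and -1.90 in the dTAG profiles. That of Mkrn3 scored -0.86 and -1.19 in the controls and -1.70 and -1.73 with dTAG. In both windows the dTAG profiles lay below both controls without overlap. These were the only matches among the 29 of 37 named genes with a promoter sequence. The motif was found in 4.32% of 1274 promoters in flat mid-level windows, 4.78% in steep, 6.67% in early and 4.62% in late windows, and 6.08% of all 32618. A match is a string of letters and no evidence of binding.

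The promoters of these windows stood between those of late and early windows in composition. The median GC content was 49.0% in flat, 47.7% in steep, 56.0% in early and 44.3% in late windows. CpG-rich promoters, with an observed over expected CpG ratio above 0.6, made up 27.6% in flat, 20.9% in steep, 44.6% in early and 13.4% in late windows. The 1274 promoters in flat windows came from 1080 genes, so they were not limited to the protein-coding genes with a midpoint there. Of those 776 protein-coding genes, 603 matched a promoter sequence.

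Flat mid-level windows formed 3 shapes, set by the score of the window minus the mean of its flanks at 200 kb. Crests, more than 0.5 above their flanks, were 893 windows (35.2%), plateaus within 0.5 of them were 863 (34.1%), and troughs, more than 0.5 below, were 778 (30.7%). Crests stood 1.15 and 1.28 score units above their flanks in the controls and 1.10 and 1.32 with dTAG. Troughs lay -1.06 and -1.13 relative to their flanks in the controls and -1.04 and -1.19 with dTAG. The differences between dTAG and control were 0.00 for crests (exact permutation test over the 4 profiles, 2-sided, p = 1.0) and -0.02 for troughs (exact p = 1.0), and with 2 profiles against 2 this test cannot go below 0.333. At 400 kb on the left the mean around crests was -1.64 and -2.43 in the controls, and around troughs 2.05 and 1.59. At that distance the average crest had late and the average trough early surroundings, which the definition of the shapes by their flanks partly builds in. At 1000 kb on the left the control means were -0.63 and -1.04 around crests and 1.30 and 0.74 around troughs, within the middle range.

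**Figure D1:**
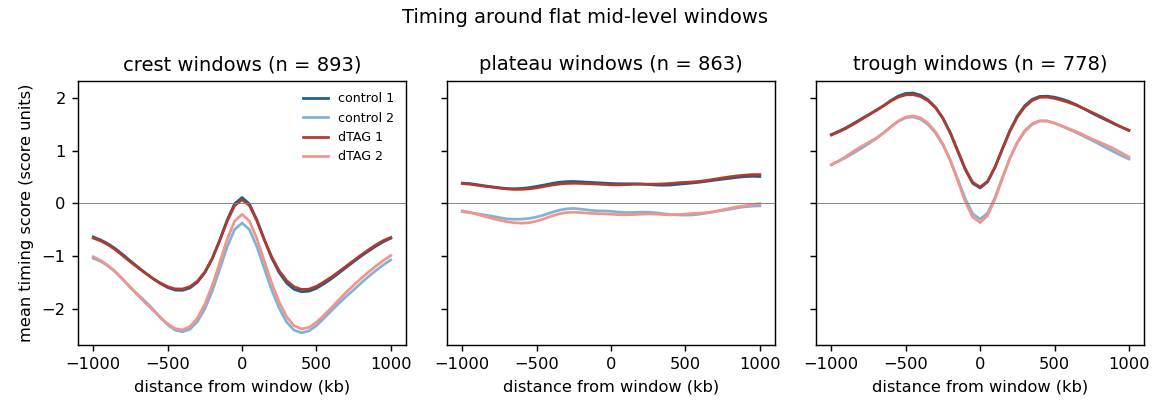
Mean timing score (y axis, score units) against distance from the window (x axis, kb) for crest, plateau and trough windows, with 1 line for each of the 4 profiles. Control and dTAG lines of a replicate number run close together, replicate 2 lies below replicate 1, and the crest of dTAG 2 (-0.21) lies above that of control 2 (-0.37).

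The windows clustered into 816 runs of adjacent members with a median length of 100 kb. There were 146 single windows, 315 runs of 2 windows and 355 of 3 or more, and neighbouring windows share smoothed signal, so they are not independent. By the score 500 kb beyond their ends, 213 runs lay between late stretches, 192 between early stretches and 85 between an early and a late one. Of the 512 windows in runs with late stretches on both sides 381 were crests, and of the 493 with early stretches on both sides 347 were troughs. Another 133 runs had an early and a middle side, 134 a late and a middle side and 54 a middle level on both. For 5 runs a side had no value.

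Members were found on every autosome. They made up 8.10% of the windows of chromosome 13 (190 windows) and 6.96% of chromosome 17, the highest shares, and 2.73% of chromosome 16 (52 windows), 3.43% of chromosome 5 and 3.53% of chromosome 11, the lowest. The first 5 Mb of the chromosomes held 5.09% of the members and 3.95% of all autosomal windows, and the last 5 Mb held 4.18% of the members.

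Gene density in flat windows was close to that of steep ones, while gene bodies covered more of them. Midpoints of 776 protein-coding genes, 3.61% of the 21521 with a score, fell in the members, which gives 6.12 per Mb against 5.89 in steep, 15.5 in early and 2.77 in late windows. Protein-coding gene bodies covered on average 43.0% of a flat window, 36.1% of a steep, 56.6% of an early and 26.3% of a late one. Within the members the shapes differed in the kind of gene. Crests held genes with a median length of 16.8 kb, 0.974% of them over 300 kb, and were covered to 34.1%. Troughs held genes with a median length of 35.9 kb, 13.2% of them over 300 kb, and were covered to 50.7%. No test was made of these differences, because the shapes come from the same scores and neighbouring windows share genes.

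**Figure D2:**
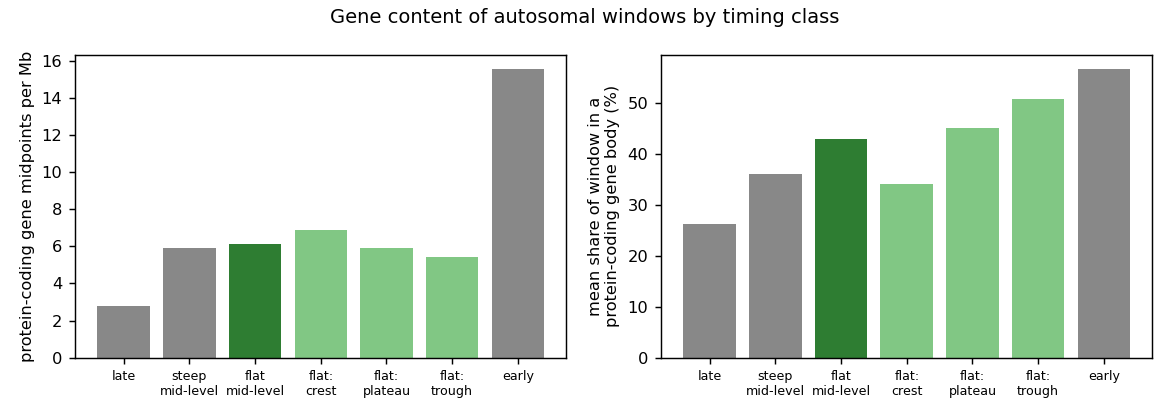
Left, midpoints of protein-coding genes per Mb, and right, the mean share of a window inside a protein-coding gene body (%), for late, steep, flat and early autosomal windows (bars, x axis) and the 3 shapes of flat windows in light green. Coverage goes from 34.1% in crests to 50.7% in troughs although the density of midpoints goes the other way.

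Most gene lists had few genes in flat windows by number, though the shares of several lay above that over all protein-coding genes. The share over all protein-coding genes was 3.61%, and no test was made between lists. No member was found among 26 pluripotency genes, 39 Hox genes and a list of 21 cadherin family genes outside the gene clusters. Of these 21, 15 lay in late windows. That list does not hold Cdh13, a cadherin gene that is a member and belongs to another list. Of 88 genes for cytosolic ribosomal proteins 1 was a member (Rps23, 1.14%), and of 367 zinc finger genes named Zfp 6 were (1.63%). Of 32 germ layer regulators 1 was a member (3.1%), Neurod1, a neuronal transcription factor. Of 33 DNA replication and timing genes 2 were members (6.06%). These were Orc5, a subunit of the origin recognition complex, and Cdc7, the kinase that triggers origin firing. Of YY1 and its partners 1 of 16 was a member (6.25%), Hdac2, a histone deacetylase. The list of imprinted genes gave 2 of 38 (5.26%), Asb4 and Mkrn3. Long neuronal and fragile-site genes gave 4 of 50 (8.0%, the highest share of any list), among them Cdh13, Ntm and Immp2l.

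The window of Orc5 scored 1.75 and 0.88 in the controls and 1.29 and 1.02 with dTAG, and that of Hdac2 1.21 and 1.07 against 1.13 and 1.26. The dTAG and control values overlapped at both genes. Cdc7 scored 1.28 and 0.71 in the controls against 1.35 and 0.27, and Rps23 scored 1.31 and 0.64 against 1.34 and 0.91, again with overlap. Asb4, the earlier of the 2 imprinted members, scored 1.30 and 0.47 in the controls and 1.72 and 0.74 with dTAG. Cdh13, an atypical cadherin gene, scored -0.22 and -2.25 in the controls and 0.02 and -1.18 with dTAG. At Asb4 and Cdh13 the groups overlapped. Neurod1 was at the late edge, with -0.98 and -1.34 in the controls and -1.71 and -1.90 with dTAG, both below both controls. Among the Zfp genes Zfp189 had the lowest difference (-0.18 and -0.64 in the controls, -1.004 and -2.03 with dTAG, no overlap) and Zfp40 the highest (0.38 and 0.30 against 0.47 and 0.55, no overlap).

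Odorant and pheromone receptor genes, expressed in the nose and arranged in large clusters, gave the most members by number, from 2 of the longest lists. Flat windows held 65 of 1109 olfactory receptor genes (5.86%), in 31 windows and 17 runs on 10 chromosomes, and 26 of 350 vomeronasal receptor genes (7.43%) in 20 windows and 12 runs. The median over the 31 olfactory windows was -0.34 and -0.50 in the controls and -0.17 in both dTAG profiles. In 29 of these windows the mean with dTAG was higher, with a median difference of 0.28 (0.12 in replicate 1 and 0.55 in replicate 2), against a median of 0.04 over all members. Both dTAG profiles were above both controls in 15 of the 31 and below in 0. The shares were 14.5% and 12.9% over all members and 10.9% and 8.53% over all windows. Steep windows with olfactory genes had a median difference of 0.21 (136 of 169 above 0). Both dTAG profiles were above both controls in 74 of these and below in 2, so the direction was not particular to flat windows. The vomeronasal windows had a median difference of 0.16, with 14 of 20 above 0. Near-identical receptor copies can share reads, and by the limit for a shift defined below 2 olfactory windows were shifted earlier and 0 later, and 0 vomeronasal windows earlier and 1 later. Both dTAG profiles were above both controls in 8 of the 20 vomeronasal windows and below in 2. In steep windows with vomeronasal genes the counts were 31 and 9 of 85. The olfactory gene with the highest difference, Olfr1243, scored -1.62 and -1.501 in the controls and -0.96 and -0.20 with dTAG, without overlap. Olfr323, with the lowest, scored 0.84 and 0.17 against 0.55 and 0.09, and there the groups overlapped.

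Over all members the mean with dTAG differed from the controls by less than the spread between replicates. Their mean was 0.26 in control 1, -0.27 in control 2, 0.24 in dTAG 1 and -0.25 in dTAG 2, so the replicate numbers stood apart and the groups overlapped. The difference between dTAG and control was 0.00 (-0.02 in replicate 1 and 0.02 in replicate 2; exact permutation test, 2-sided, p = 1.0). The same difference minus that of steep windows was -0.0049 (-0.03 and 0.02; exact p = 1.0). Crests gave 0.06 (-0.04 and 0.16), plateaus -0.04 (-0.03 and -0.05) and troughs -0.02 (0.02 and -0.06), with exact p of 1.0, 0.667 and 1.0. Over all windows the mean was 0.20 in both control 1 and dTAG 1, and -0.20 in both control 2 and dTAG 2. The deposited scores thus hold no group difference over all windows, and a value near 0 over a broad set is partly built in. After giving every profile the same distribution, the member means were 0.02 and -0.03 in the controls and 0.0001 and -0.01 with dTAG.

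The offset between replicate numbers came with the deposited scores. The members were 0.51 score units lower in replicate 2 than in replicate 1 (mean of -0.51, with 83.3% of members lower), while after giving every profile the same distribution the mean was -0.03 and the share 51.5%. Between replicate numbers limma, with Benjamini-Hochberg adjustment over all 51425 windows of the autosomes and X, called 621 members (24.5%, 595 of them lower in replicate 2) against 30.2% of all windows.

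For dTAG against control, limma called 0 members, against 0.0% of all windows, and the smallest adjusted p was 1. At an unadjusted p under 0.05 there were 72 members (2.84%) against 0.972% of all windows and 1.89% of steep ones. Each of these shares was below the 0.05 that no difference at all would give on average. The median standard error of the difference in a member was 0.43, and the median size of the difference was 0.30 (0.27 in steep windows). This fit held no term for the replicate number, so the offset between replicate numbers is part of that error. In 71.2% of the members the difference was under 0.5. Among the alternatives given at the end, a replicate block with trended and robust variance called 8.72% of members, against 2.84% of all windows.

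Larger differences were counted without a test. A window was taken as shifted earlier where both dTAG profiles lay at least 0.5 above both controls, and as shifted later where both lay at least 0.5 below. The limit also compares profiles across replicate numbers, so with their offset a window can fail it despite large differences within both. Of the members 40 were shifted earlier (1.58%, against 0.531% of all windows) and 76 later (2.999%, against 1.09%). Steep windows gave 87 (1.04%) and 191 (2.27%), early windows 0.0262% and 0.299%, and late windows 0.593% and 1.004%. With no minimum size, both dTAG profiles were above both controls in 367 members (14.5%, against 10.9% of all windows) and below both in 328 (12.9%, against 8.53%). These shares moved when 1 profile was left out, which leaves 2 differences in place of 4 to pass the limit and unbalances the replicate numbers, and how much each contributes was not tested. Leaving out control 1 gave shares of 16.4% earlier and 5.21% later, and leaving out control 2 gave 2.76% and 11.8%. Leaving out dTAG 1 gave 4.30% and 16.1%, and leaving out dTAG 2 gave 9.51% and 4.03%. With every profile given the same distribution, 2.10% of the members so chosen were shifted earlier and 3.76% later. Shares over all windows were not computed for these settings, so the changes are not known to be particular to the members.

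**Figure D3:**
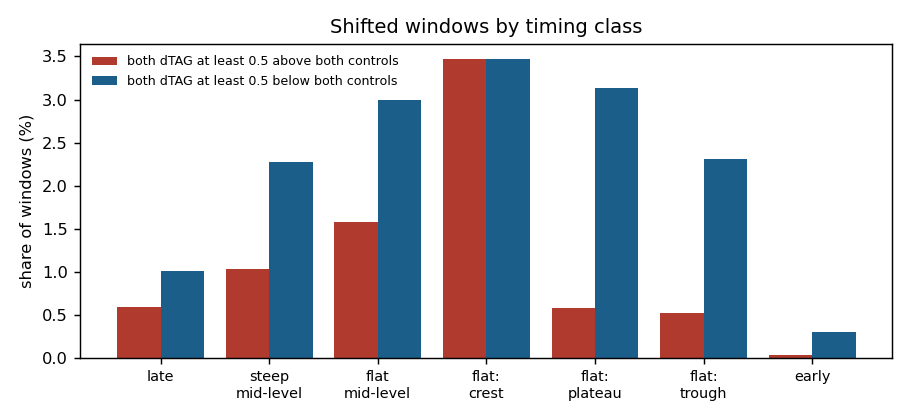
Share of autosomal windows (y axis, %) in which both dTAG profiles lay at least 0.5 score units above (red) or below (blue) both controls, by timing class and by shape of the flat windows (x axis). Crests have equal shares of 3.47% in both directions, while plateaus and troughs have few earlier windows (0.579% and 0.514%).

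Scores changed side in a small number of members. All profiles of the controls were below 0 and all of the dTAG group above 0 in 32 members (1.26%, against 0.307% of all windows), and the reverse was seen in 39 (1.54%, against 0.35%). Only a window with a mean near 0 can do so, and in steep windows, chosen in the same range, the shares were 1.34% and 1.54%.

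The differences were partly shared by the replicate numbers. Across the 2534 members the difference in replicate 1 and that in replicate 2, which come from separate profiles, had a Pearson correlation of 0.556, against 0.573 over steep windows and 0.362 over all windows. Points along a chromosome share smoothed signal, and the value is a description. The sign was the same in 67.9% of members and 60.7% of all windows.

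**Figure D4:**
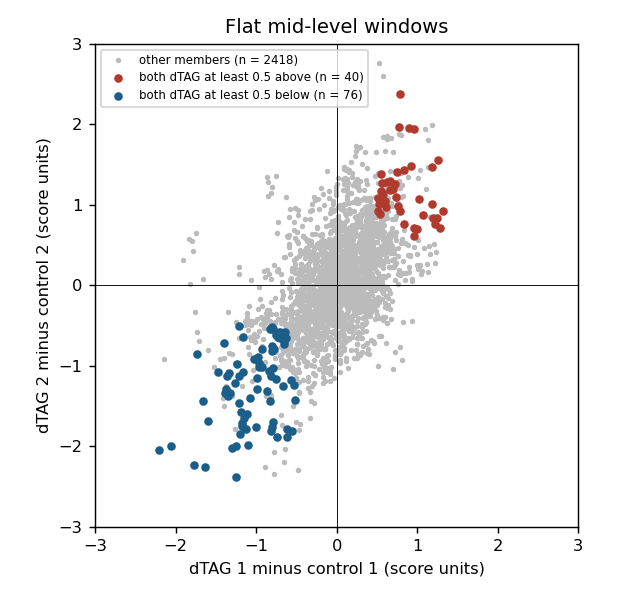
Each point is a flat mid-level window, with dTAG 1 minus control 1 on the x axis and dTAG 2 minus control 2 on the y axis (score units). The 40 windows shifted earlier (red) and the 76 shifted later (blue) were chosen by these values, and the grey points between them form a cloud stretched along the diagonal.

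Windows shifted earlier and windows shifted later differed in gene content. The 40 earlier windows, in 21 runs on 13 chromosomes, held 5 protein-coding gene midpoints, and 35 of them (87.5%) touched no protein-coding gene body. The 76 later windows, in 27 runs on 14 chromosomes, held 22 midpoints, and 16 of them (21.1%) touched none. Counted by run, a shifted window overlapped a gene body in 3 of 21 runs with earlier windows and in 25 of 27 with later windows. Gene bodies covered 4.59% of the earlier and 59.0% of the later windows on average, against 43.0% over all members. No test was made, and the 2 sets also started from different levels. The mean of the earlier set was -0.97 and -1.12 in the controls and -0.13 and 0.05 with dTAG, and that of the later set 0.06 and 0.04 against -0.98 and -1.22.

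The shapes and the runs also divided the directions. Crests made up 31 of the 40 earlier and 31 of the 76 later windows, plateaus 5 and 27, and troughs 4 and 18. No run held windows of both directions. By level, the latest band of the range (means of -1.5 to -0.5) had 23 earlier and 41 later windows among 865, the middle had 12 and 31 among 834, and the earliest (0.5 to 1.5) had 5 and 4 among 835. Chromosome 12 held 16 of the later windows and 0 of the earlier ones among its 98 members, with a mean difference of -0.29 (-0.28 and -0.29 within the replicate numbers). On the other chromosomes 40 windows were shifted earlier and 60 later.

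The later windows held several genes of known function. Mrpl44, for a protein of the mitochondrial ribosome, and Serpine2, for a secreted inhibitor of serine proteases, lie side by side on chromosome 1 (mm10, run chr1:79750001-79950000). The run scored 0.19 and -0.31 in the controls and -1.18 and -2.27 with dTAG, a difference of -1.66 (-1.37 and -1.96), and the dTAG profiles lay below both controls. It had the lowest mean difference of any run of 3 or more windows whose 4 pairwise differences had the same sign. The run over Hivep2, a zinc finger transcription factor gene, on chr10:13900001-14150000 scored -0.56 and 0.07 in the controls and -1.51 and -1.77 with dTAG (difference of -1.40), and 4 of its 5 windows were shifted later. The run inside Nrcam, a neuronal cell adhesion gene, on chr12:44350001-44550000 went from 0.98 and 0.64 to -0.20 and -0.97 (difference of -1.39), and all 4 of its windows were shifted later. In neither of these runs did the groups overlap. A shorter run of 2 windows without a gene midpoint, chr12:61550001-61650000, picked after its values were seen, differed more, with -0.14 and 0.36 in the controls and -2.28 and -1.66 with dTAG (difference of -2.08).

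A pair of further runs completed the 5 with the lowest differences. The run on chr12:33250001-33400000 lies over Atxn7l1, related to the ataxin 7 gene, and Efcab10. It scored 2.41 and 1.39 in the controls and 1.01 and 0.01 with dTAG. The difference was -1.39 (-1.39 in replicate 1 and -1.38 in replicate 2). The run on chr4:87750001-88050000 lies over Mllt3, which encodes a subunit of complexes that promote transcript elongation. It scored 0.76 and 0.13 against 0.04 and -1.90, a difference of -1.38 (-0.72 and -2.03). In these 2 runs the groups did not overlap, but the nearest profiles were less than 0.5 apart and no window met the limit for a later shift. Other genes in windows shifted later, listed after their values were seen, were Vps41, for a subunit of a complex in vesicle fusion (0.79 and 0.36 against -0.54 and -0.97), Dock1, an activator of the GTPase Rac (0.13 and -0.23 against -1.13 and -1.45), and 2 imprinted genes that the list does not hold, Nap1l5 (-0.45 and -0.08 against -1.24 and -1.78) and Peg12 (-0.97 and -1.14 against -1.78 and -1.89). The dTAG profiles lay below both controls at each of them.

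Of the 5 runs with the highest differences, 3 held a protein-coding gene midpoint. The run over Slc39a10, a zinc transporter gene, on chr1:46800001-46950000 was a crest with 0.14 and -1.56 in the controls and 1.28 and 0.36 with dTAG, a difference of 1.53 (1.14 and 1.92). The run on chr10:26850001-27000000, with the short gene Gm30534, scored -1.21 and -2.52 against -0.32 and -0.60 (difference of 1.41). That on chr13:22800001-23000000 holds the vomeronasal receptor genes Vmn1r212, Vmn1r209 and Vmn1r210 and scored 0.35 and -1.24 against 0.98 and 0.59 (difference of 1.23). In each of these 3 runs the groups did not overlap, while the controls themselves differed by more than 1 score unit. Runs without a protein-coding gene midpoint on chr2:61100001-61300000 (-0.97 and -1.82 against 0.03 and -0.56) and chr15:87800001-87950000 (-1.02 and -0.50 against 0.23 and 0.27) followed, with differences of 1.13 and 1.01. All 3 windows of the chromosome 15 run were shifted earlier, 2 of the chromosome 10 run and 1 of the chromosome 2 run, and 0 of the other 2 runs. The control mean of that run was -0.76 ± 0.37 (SD, n = 2) and the dTAG mean 0.25 ± 0.03 (SD, n = 2).

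**Figure D5:**
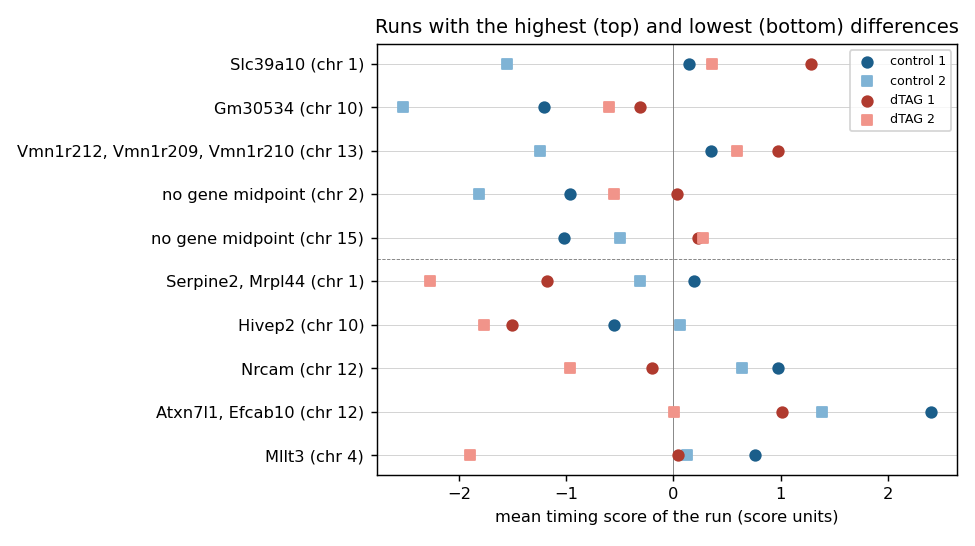
Mean timing score (x axis, score units) in each of the 4 profiles for the 5 runs with the highest (above the dashed line) and the 5 with the lowest dTAG minus control difference, labelled by their genes and chromosome. The groups do not overlap in any of the 10 runs, which the rule for choosing them required, and the controls lie far apart at Slc39a10 (0.14 and -1.56).

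Long level stretches were rare. There were 24 runs of 500 kb or more, with 289 windows, of which 63.7% were plateaus. The longest, 1000 kb on chr18:4650001-5650000, holds Svil, for the actin-binding protein supervillin, and Zfp438, a zinc finger gene. It scored -0.05 and -0.29 in the controls and -0.68 and -0.93 with dTAG, without overlap, with a difference of -0.63 in both replicate numbers, and 8 of its 20 windows were shifted later. The next, 950 kb on chr10:32650001-33600000 over Trdn, a calcium release gene of muscle, and Clvs2, scored 0.03 and -1.53 in the controls and -0.22 and -0.92 with dTAG. There the dTAG profiles lay between the controls.

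The remaining long runs of the first 5 were of 700 kb. The run on chr3:7600001-8300000 holds no protein-coding gene midpoint and scored 0.26 and -0.62 in the controls and 0.49 and 0.45 with dTAG. The run on chr6:50150001-50850000 over Osbpl3, Mpp6 and Gsdme, the last for a pore-forming gasdermin, scored 0.62 and 0.05 against 0.71 and -0.43. The run on chr14:77300001-78000000 over Enox1, Epsti1 and Dnajc15 scored 0.72 and -1.47 against -0.94 and -1.67. On chromosome 3 both dTAG profiles lay above both controls, by less than 0.5 over control 1, and over Osbpl3 and over Enox1 the groups overlapped. Over the 24 long runs the difference was below 0 in 16 and above 0 in 8, with a median of -0.18 (-0.13 and -0.38). They held 0 windows shifted earlier and 20 shifted later (6.92%), in 5 runs. Over all members the shares were 1.58% and 2.999%, and over all windows 0.531% and 1.09%. Of the 20 later windows, 8 lay in the longest run, on chromosome 18, and 8 in a run on chromosome 13. Amph, for a protein of synaptic vesicle uptake, and Vps41 share the latter, 550 kb on chr13:18550001-19100000. It scored 0.66 and 0.33 in the controls and -0.45 and -0.59 with dTAG, with 8 of 11 windows shifted later.

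Membership itself varied between profiles. The rule held in each of the 4 profiles for 1030 members (40.6%), in 3 for 754, in 2 for 584, in 1 for 149 and in none for 17. Chosen on the control profiles alone there were 2522 flat mid-level windows and on the dTAG profiles alone 2531, of which 1903 were shared, 75.5% of the first and 75.2% of the second. Of the 619 flat in the controls only, 340 were steep, 152 late and 127 early by the dTAG profiles. Of the 628 flat with dTAG only, 310 were steep, 182 late and 136 early by the controls. Between replicate numbers the overlap was smaller. Of windows chosen on replicate 1, 60.6% met the rule in replicate 2, and of those chosen on replicate 2, 63.6% met it in replicate 1. Of the windows chosen on replicate 1, 74.6% were flat and 78.8% were mid-level in replicate 2. Of those chosen on replicate 2, 87.6% were flat and 73.1% were mid-level in replicate 1. How far the offset between replicate numbers moved windows across the level limits was not tested.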

How the data were processed

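Repli-seq profiles of mESC were analysed from 1 table. Per the file headers and name, the deposited values are a signed timing score at 5 kb positions on mm10, smoothed with Loess over 400 kb and quantile normalized by the authors. Bowtie2, SAMtools and bedtools are named in the submitters' processing notes. How the score was computed, its log base and its direction are not stated, and high was read as early. Smoothing makes neighbouring windows share signal, and quantile normalization fixes the spread of a profile. Profiles of the same replicate number also had the same mean over all windows. The tests had been planned for log2 ratios and were run on score units.

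Scores at the 514245 of 526745 positions with all 4 profiles were averaged over 50 kb windows with at least 5 of 10 positions (51425 windows of 19 autosomes and X). Window scores were fitted in R 4.3.3 by limma 3.58.1 with no term besides group, using lmFit, eBayes and 2-sided p-values adjusted by Benjamini-Hochberg to a threshold of 0.05. The script was tested on simulated data. Means over members were compared by exact permutation tests over profiles. Columns were assigned to groups by name, and replicate 1 carries no number in the labels. Gene midpoints, from RefSeq on GRCm38.p6, placed genes in windows. The members and lists were chosen with earlier results of these data known. Named were the 5 longest runs, the 5 runs of 3 or more windows with the highest and the 5 with the lowest difference among those with all 4 differences of one sign, with up to 3 of their longest genes, and the highest and lowest gene of each list. A gene that this rule selects is not reported here. Alternatives changed the level, flatness, flank distance, window size, position minimum, shift size, distribution, replicate block and profiles. GC content of whole windows was not analysed here.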

Additional observations from a re-analysis of the deposited data

How the results depend on the processing

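Of 81 alternative values of 7 results, 57 were counted as the same. For shares and the number of members this meant a value within 1.5 times of the reported one. For the mean difference and the difference from steep windows it meant only the same sign, whatever the size. A mean difference of 0.2665 without control 1 was therefore counted as the same as 0.0014. With all profiles on one distribution, limma called 6.33% of members between replicate numbers and 14.2% of all windows. Calls for dTAG against control stayed at 0.0% of members with the replicate block, but with a trended and robust variance in that replicate block they were 8.72% (221 members, 80 higher and 141 lower with dTAG), against 2.84% of all windows and 6.54% of steep ones. The median standard error in a member was 0.197 with the replicate block alone and 0.43 without it. Replicate numbers are not said to mark a shared culture. Same-numbered profiles deviated together (correlation of deviations over members of 0.633), with only 2 pairs. At a shift of at least 0.25 the shares were 5.68% of members earlier and 6.83% later, and those over all windows were not computed.

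The mean difference over members was near 0 and turned to -0.0111 with level limits of 1, to -0.0003 with a flatness limit of 0.5 and to -0.0159 for members chosen on replicate 2 alone. The difference between flat and steep windows turned to 0.011 with flanks at 400 kb. The number of members was 1670 with level limits of 1, 1306 with a flatness limit of 0.5 and 1267 with windows of 100 kb, where fewer windows can qualify. Without 1 profile, calls between replicate numbers ranged from 6.83% to 28.3%, earlier shifts from 2.76% to 16.4%, later shifts from 4.03% to 16.1%, the mean difference from -0.264 to 0.267 and the difference from steep windows from -0.0196 to 0.0097. These fits leave 1 profile in a group, assumed to vary like the other group, and carry the replicate offset. The cause of the other changes was not tested. Depth is unknown and sets no limit that could be given here.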
